A study of Mus musculus with 98 samples.

Results

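The cells described here are the capillary endothelium of the mouse thymus, which the study's deposited cell labels name EnC. They were taken by that label alone, which the authors gave to cells from clusters of the expression profiles. The label was carried by 2366 of the 36208 labelled cells of an age series of WT C57BL/6 thymi, next to 449 cells of arterial endothelium (EnA) and 838 cells of venous and lymphatic endothelium (EnVL). The age series holds Ter119-CD45-EpCAM- cells, the nonepithelial thymic stroma (NETS), captured with a droplet 3′ kit on embryonic day E12.5 (1 library), E13.5 (1 library), E16.5 (2 libraries), birth (P0, 2 libraries) and 4 weeks (W4, 2 libraries). 2 further data sets of the study were read for the same cells. The first holds Ter119-CD45- cells of newborn Tbx1+/-Crkl+/- mice and of their WT littermates (3 libraries each), fixed with RNAprotect, in which 1161 of 21451 cells carried the EnC label. The second is bulk RNA of sorted CD31+ cells of WT mice at P0 and at 4 weeks (6 libraries each), which pools all endothelial subtypes.

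Capillary endothelial cells form the thin wall through which blood and tissue exchange gas, nutrients and lipid. Their lipid-handling form carries *Gpihbp1*, which holds lipoprotein lipase on the vessel wall, the fatty acid transporter *Cd36* and the fatty acid carrier *Fabp4*. In the thymus, vessels also let blood-borne progenitors in and mature T cells out, and endothelium shares with other stroma the display of peptides on MHC class I.

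EnC cells numbered 91 at E12.5, 413 at E13.5, 460 and 545 in the E16.5 libraries, 159 and 177 in the P0 libraries and 246 and 275 in the W4 libraries. UMIs, the tags that count each captured transcript once, were summed over the EnC cells of a library, which gave 1534557 to 8097581 UMIs per library. Levels are CPM, the counts of a gene scaled to the same total in every sum, and 8 values for a gene follow the order E12.5, E13.5, both E16.5, both P0 and both W4 libraries. Median depth was 19094 UMIs per EnC cell at E12.5, 15470 at E13.5, 14419.5 and 14059 at E16.5, 8326 and 7947 at P0, and 5460.5 and 5185 at W4. Across genes, the EnC profiles of the 2 libraries of an age had a Pearson correlation of log2 CPM of 0.983 at E16.5, 0.955 at P0 and 0.969 at W4, and E12.5 and W4 were the most distant ages (0.680 and 0.673). Over the 28 pairs of libraries, a pair shared 0 to 14 cell barcodes, and EnC cells shared 1 barcode in all. Each age was captured in libraries of its own, so that age and capture cannot be told apart beyond the spread between the 2 libraries of an age. By the study's description, cells came from 2 thymi per age from E16.5 on and from pooled thymi of 2 litters at E12.5 and at E13.5. The labels do not tie a library to a thymus, so p-values measure the spread between libraries, which may be in part technical.

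Markers of other cells were read in EnC as summed CPM. The thymocyte list (16 genes) held 20.8, 24.2, 32.2, 39.1, 80.8, 60.1, 348 and 212 CPM in the 8 libraries, and at least 1 UMI of it lay in 28.1 to 54.1% of EnC cells up to P0 and in 83.3 and 68.4% at W4. The haemoglobin and erythroid list (6 genes) was at 0.562 and 8.22 CPM before E16.5, at 5129 and 5735 at E16.5, at 181 and 27245 in the 2 P0 libraries and at 30642 and 40394 at W4. Fibroblast genes (8) reached 44.9 to 2998 CPM, against 21347 in the fibroblasts labelled CapFb1a, CapFb1b, CapFb2a or MedFb1a. Other fibroblast labels were not part of that value. Mural genes (9) reached 50.6 to 1378 CPM against 13446 in labelled mural cells. Epithelial genes (9) summed to 0 to 94.7 CPM and myeloid genes (8) to 6.14 to 21.2 CPM. At W4 the thymocyte, epithelial and erythroid sums were the highest of the series, and their part in the changes at W4 was not tested. Leaving out the EnC cells that held a thymocyte UMI was an alternative chosen after seeing the data.

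The 3 marker genes read first were *Gpihbp1* (chromosome 15, chr15:75596630-75598213 in GRCm38), *Pecam1* (chr11:106654213-106715281), the adhesion protein CD31 of endothelial junctions, and the endothelial transcription factor *Sox18* (chr2:181669837-181671640). The labels were made from these same profiles, and the study lists *Gpihbp1* among the top genes of EnC. Its level is therefore no independent check of the label. In EnC, *Gpihbp1* was at 62.4, 260.4, 2186, 2013, 2936, 2916, 2106 and 2348 CPM. It was low before E16.5 and high in all 6 libraries from E16.5 on. In each of the 8 libraries the EnC level lay above that of EnA, by little at E12.5, where EnA rests on 10 cells (56.2, 23.9, 1515, 1102, 297, 576, 769.6 and 975 CPM) and of EnVL (30.6, 69.4, 1949, 1873, 1296, 1339, 429 and 999.8 CPM). With every cell drawn down to 2000 UMIs, for which 0 to 14 EnC cells per library were too shallow, *Gpihbp1* had a UMI in 12.1% of EnC cells at E12.5 and 36.4% at E13.5, and in 88.6 to 96.9% in each later library (53.8 to 98.9% without thinning). In pericytes, which should lack the gene, the thinned share was 0 to 2.08% at median depths of 4941.5 to 17597 UMIs. *Pecam1* did not separate EnC from its neighbours. EnC held 463, 565, 763, 718, 966, 945, 1409 and 1487 CPM of it, and EnA held more in 7 of the 8 libraries. *Sox18* was at 194, 120.4, 274, 229, 342, 316, 509 and 590.3 CPM in EnC and was higher in EnA in each of the 8 libraries. Of these 3 genes *Gpihbp1* alone was higher in EnC than in both neighbours, and at E12.5 and E13.5 most EnC cells held little of it.

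Genes that stood above both neighbours at P0 and W4 were found by the lowest ratio of EnC to the higher of EnA and EnVL over the 4 libraries of these ages, among genes with a mean of at least 100 CPM in EnC over these libraries, without a test, since the labels were made from these genes. The GTPase-activating protein *Arhgap18* had the highest such ratio, 3.01. Then came *Gpihbp1* (2.18), the cell cycle regulator *Rgcc* (2.14), the adaptor *Dok4* (2.12), *Ccdc85a* (1.98), the VEGF receptor *Kdr* (1.97), the β-catenin inhibitor *Ctnnbip1* (1.89), the sialyltransferase *St8sia4* (1.73), the laminin chain *Lamb1* (1.61), the actin-bundling protein *Fscn1* (1.59), the basement membrane linker *Nid2* (1.59) and *Fabp4* (1.57). *Rgcc* was at 107.3, 169.7, 1087, 1003, 1901, 1784, 1267 and 1282 CPM in EnC against 31.2, 6.32, 478, 398, 72.5, 206, 277 and 280.2 in EnA and 85.7, 199.9, 1077, 887, 754, 832, 65.6 and 224 in EnVL. Its levels in EnC and EnVL were near each other up to E16.5 and parted at P0 and W4. *Kdr* was at 433, 384, 405, 389, 542, 551, 676 and 639 CPM in EnC, and its levels in EnA and EnVL at W4 were 203.8 and 203.6 CPM and 273 and 258 CPM. In the libraries up to E16.5, EnA held 400, 357, 576 and 511 CPM and EnVL 402, 317, 345 and 302 CPM. At E16.5 *Kdr* was thus higher in EnA than in EnC.

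**Figure D1:**
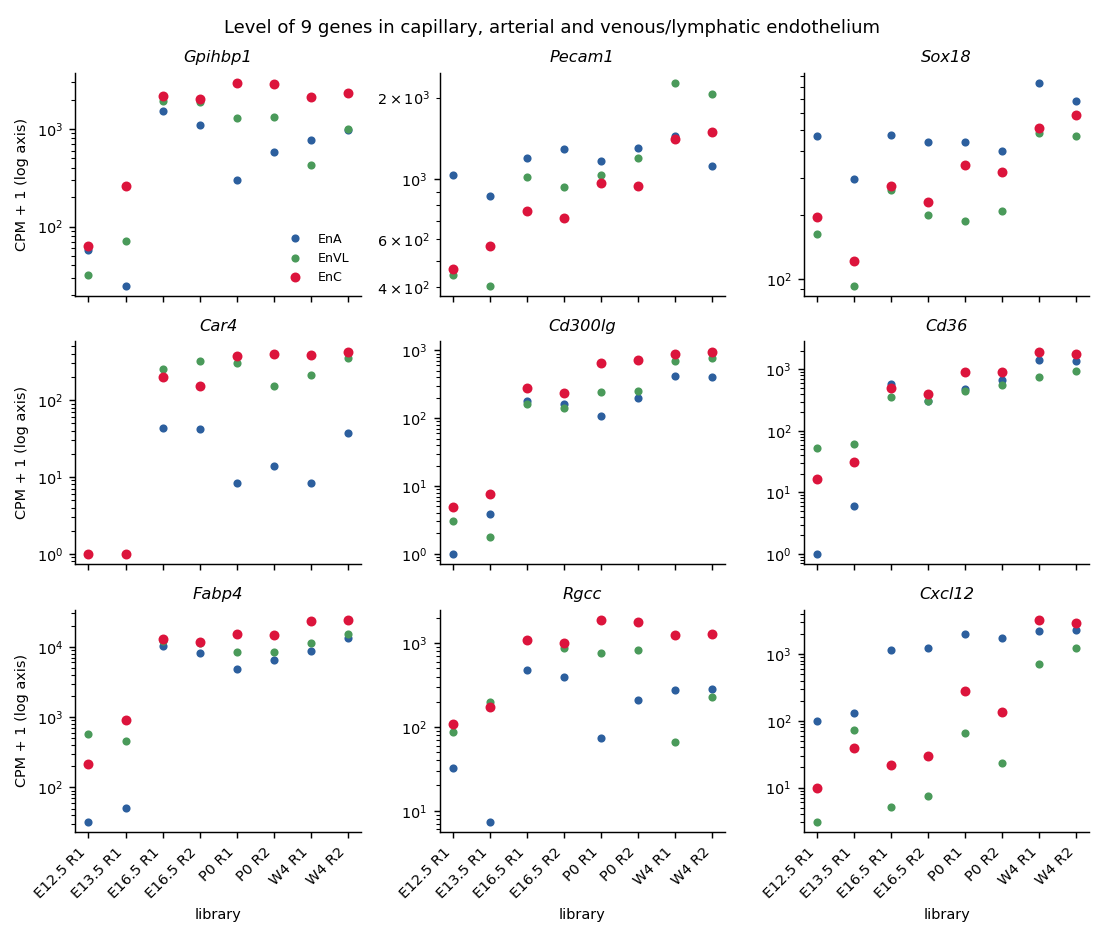
CPM + 1 (log axis) of 9 genes in EnA, EnVL and EnC by library, each point being the UMIs summed over the cells of 1 subtype in 1 library. Gpihbp1, Cd36 and Cd300lg in EnC sit low at E12.5 and E13.5 and high from E16.5, while Cxcl12 reaches 3272 and 2887 CPM in EnC only in the W4 libraries.

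EnC made up 4.56% of the NETS cells at E12.5, 7.35% at E13.5, 7.98 and 8.27% at E16.5, 3.39 and 3.098% at P0 and 9.59 and 8.41% at W4. The P0 libraries were the lowest and the groups of 2 did not overlap between P0 and any other age. With the libraries as replicates and the number of NETS cells as offset, the share differed over the ages (edgeR's quasi-likelihood test, adjusted p = 0.00138 over the subtypes), and W4 stood above P0 by 1.47 on the log2 scale. Within the endothelium EnC held 68.9, 63.5, 72.2, 68.8, 56.2, 60.8, 57.9 and 62.1% of the cells. With endothelial cells as offset, W4 and P0 differed by 0.04 on the log2 scale, and the test over all ages gave an adjusted p of 0.0349. The share of captured cells depends on how well each type leaves the tissue, and the part of the bead depletion of adult digests in it was not tested. The labelled proliferating cells (Pr) are counted apart, so that some dividing capillary cells may be counted there. EnC before birth held cell cycle transcripts all the same, as given below.

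**Figure D2:**
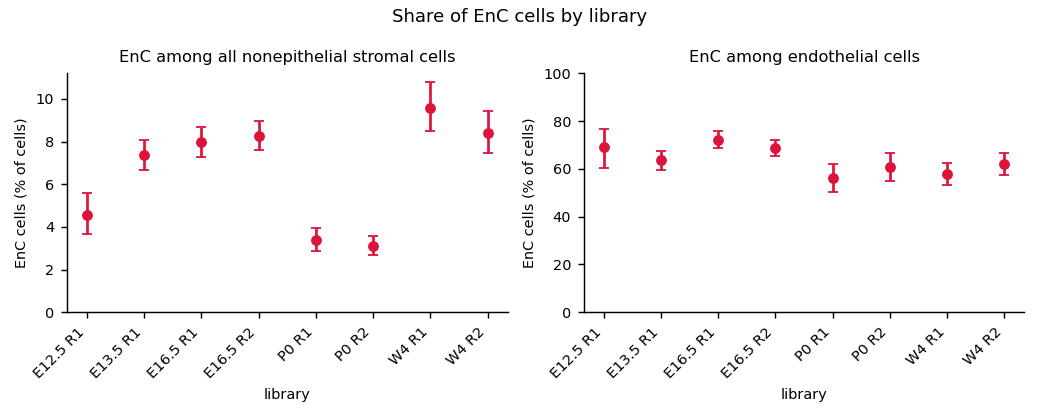
EnC cells as a percentage of all NETS cells and of endothelial cells (EnA, EnVL and EnC) in each of the 8 libraries, with 95% exact binomial intervals that cover counting error only. EnC is 3.39 and 3.098% of NETS at P0 and 9.59 and 8.41% at W4, while its share of the endothelium lies between 56.2 and 72.2% throughout.

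The first age step asked which genes set E16.5 EnC apart from EnC at E12.5 and E13.5. Genes of lipid uptake, of capillary identity and of antigen display were higher at E16.5, several of them from levels near 0. Among them *Fabp4*, *Gpihbp1* and *Rgcc* rose in EnA and EnVL as well. Whether the other rises of this step were particular to EnC was not tested. Of the 20 fetal growth and imprinted genes, 10 were lower and 3 higher (6 to 11 lower and 0 to 4 higher under the alternatives, the least without the E12.5 library or in DESeq2). Of the 11200 genes tested in EnC, 21.3% changed (14.1% higher and 7.17% lower at E16.5, edgeR's quasi-likelihood test, adjusted p under 0.05). E12.5 and E13.5 have 1 library each, and the fit takes their spread from the ages with 2. Over all ages together, 56.3% of these genes changed.

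Among the 15 capillary genes, 11 rose and 1 (*Tcf15*, a transcription factor of capillary lipid uptake) fell, with a median log2 difference of 3.05 against 0.04 over all genes. The list holds *Gpihbp1*, *Rgcc* and *Fabp4*, which the study gives as top genes of EnC in these same cells. Its counts are therefore not independent of the label. *Car4*, a carbonic anhydrase on the capillary surface, had no UMI at E12.5 or E13.5 and was at 199, 149.9, 371 and 392 CPM in the 4 libraries of E16.5 and P0. Its level at E16.5 was at least 481-fold higher than in the 2 earlier libraries, taking 3 counts over the group for the zeros. After thinning, *Car4* had a UMI in 0 of 91 and 0 of 412 EnC cells at E12.5 and E13.5, which allows a share of cells with a UMI, not of cells expressing the gene, of up to 0.891% at E13.5 (exact 95% limit), and in 27.3 and 19.7% at E16.5. *Cd300lg*, a mucin-like receptor of capillary endothelium, was at 3.93, 6.54, 281, 236, 658, 715, 898 and 962 CPM and rose (log2 fold change 5.76 ± 0.18 SE, adjusted p = 2.73e-07). *Gpihbp1*, with the values given above, rose (log2 fold change 4.14 ± 0.11 SE, adjusted p = 2.4e-07). *Rgcc* rose (log2 fold change 3.05 ± 0.10 SE, adjusted p = 3.06e-07).

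Of the 17 genes of fatty acid handling, 10 rose and 1 fell (median log2 difference 2.56). *Fabp4* was at 217, 898, 12835, 11727, 15056, 14490.5, 23192 and 24172 CPM and rose (log2 fold change 4.89 ± 0.08 SE, adjusted p = 1.53e-08). The E13.5 library lay above the E12.5 library, and both lay far below every later one. *Fabp4* also rose in EnA, from 31.2 and 50.6 CPM at E12.5 and E13.5 to 10325 and 8157 CPM at E16.5. In EnVL it rose from 565 and 449 CPM to 11991 and 11154 CPM. By the values given above, *Gpihbp1* and *Rgcc* rose in both neighbours too, so these rises were not particular to EnC. *Cd36* was at 15.7, 29.8, 501, 403, 893, 914, 1957 and 1819 CPM and rose (log2 fold change 4.48 ± 0.15 SE, adjusted p = 3.53e-07). *Rbp7*, a retinol carrier of capillaries, was at 1.69, 10.3, 632, 558, 732, 727, 391 and 561 CPM and rose (log2 fold change 7.23 ± 0.26 SE, adjusted p = 4.93e-07). The water channel *Aqp1* was at 3.93, 27.2, 744, 599, 1342, 1449, 1769 and 1734 CPM and rose (log2 fold change 6.11 ± 0.17 SE, adjusted p = 2.4e-07). *Aqp1* was not a mark of EnC alone, since EnVL held 3462 and 2671 CPM of it at W4.

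The largest rises by rule also took in *Igfbp7*, a secreted binding protein of the vessel wall, at 3.93, 16.6, 2564, 2521, 5301, 4424, 7533 and 8761 CPM (log2 fold change 8.38 ± 0.16 SE, adjusted p = 2e-08). The actin-binding protein *Ablim3* had 3 UMIs in the 2 early libraries and was at 0, 0.457, 64, 49.5, 142.7, 135.9, 236 and 236 CPM, a ratio of 157 at E16.5 (95% counting interval 53.5 to 762). The immunoproteasome subunit *Psmb8* was at 0.562, 5.33, 145.8, 139.3, 206, 204, 414 and 444 CPM (log2 fold change 6.41 ± 0.18 SE, adjusted p = 2.4e-07), and the interferon-induced GTPase *Iigp1* at 0.562, 4.26, 89.6, 90.5, 291, 380.1, 438 and 496 CPM (log2 fold change 5.91 ± 0.29 SE, adjusted p = 3.43e-06). Each of these 4 genes was at 3.93 CPM or less at E12.5. That each E16.5 library lay above both earlier ones was a condition of the rule that named them.

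Among the genes lower at E16.5, neuronatin (*Nnat*), an imprinted gene known from neural tissue, was at 107.3, 89.5, 0.421, 0.741, 1.95, 2.25, 0.623 and 0.614 CPM (log2 fold change -7.21 ± 0.23 SE, adjusted p = 3.26e-07). The neurofilament gene *Nefm* was at 38.2, 68.5, 0.562, 1.85, 0, 0, 0.623 and 0 CPM (log2 fold change -5.24 ± 0.39 SE, adjusted p = 9.59e-05), and the microtubule regulator *Stmn2* at 108.4, 108.05, 3.93, 3.33, 20.2, 8.98, 10.6 and 7.98 CPM (log2 fold change -4.80 ± 0.26 SE, adjusted p = 6.76e-06). These transcripts were not particular to EnC, since *Nnat*, *Nefm* and the heparin-binding growth factor *Mdk* were lower in EnC than in the 17 other labelled subtypes with at least 20 cells at E13.5, whose median levels were 431, 133.6 and 1629 CPM. *Mdk* in EnC was at 358, 223, 18.4, 46.4, 65.8, 78, 9.97 and 7.98 CPM (log2 fold change -3.02 ± 0.33 SE, adjusted p = 0.000323). The chromatin protein *Hmga2*, a mark of fetal cells, was at 114.6, 106, 5.76, 4.57, 1.95, 0.561, 0 and 0 CPM (log2 fold change -4.32 ± 0.20 SE, adjusted p = 8.19e-06). *Cd24a*, a surface glycoprotein of immature cells, was at 136.5, 111, 4.78, 8.15, 10.4, 13.47, 26.2 and 31.9 CPM (log2 fold change -4.14 ± 0.22 SE, adjusted p = 6.76e-06), and the adhesion protein *Tro* and the growth factor carrier *Igfbp2* fell by 2.90 and 2.59 on the log2 scale.

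Tip-cell and angiogenic genes were higher at E16.5 in 14 of 19 cases and lower in 0 (median log2 difference 1.13). The apelin ligand *Apln*, a mark of sprouting endothelium, was at 41, 52.8, 136.2, 133, 129, 64, 23.7 and 18.4 CPM (log2 fold change 1.63 ± 0.25 SE, adjusted p = 0.00193). Both E16.5 libraries lay above both earlier ones. *Angpt2*, which loosens vessel wall contacts, was at 2.25, 3.96, 17.6, 23.7, 12.4, 10.7, 48.6 and 35 CPM (log2 fold change 2.87 ± 0.31 SE, adjusted p = 0.000309). Without the E12.5 library, the count of this list was 9 higher and 2 lower. Fibroblast and mural markers also stood higher at E16.5 (7 of 8 and 6 of 9 genes, and 3 and 2 without the E12.5 library), with the sums given above.

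From E16.5 to birth cell cycle genes fell in EnC, and elastin, 17 of 24 interferon-response genes and the immediate-early genes *Nr4a1*, *Fos* and *Egr1* were higher. Of the 11200 genes tested, 22.1% changed (8.75% higher and 13.3% lower at P0). All 20 of the cell cycle genes tested were lower at P0, with a median log2 difference of -2.89 against 0.01 over all genes. Cyclin B1 (*Ccnb1*), which drives entry into mitosis, was at 61.2, 49.5, 105, 38.2, 1.3, 3.93, 3.12 and 0.614 CPM (log2 fold change -4.85 ± 0.74 SE, adjusted p = 0.00359). Survivin (*Birc5*), of the chromosomal passenger complex, was at 221, 172.4, 282, 99.9, 11.7, 11.8, 10.6 and 4.91 CPM (log2 fold change -4.16 ± 0.57 SE, adjusted p = 0.0024). The mitotic ubiquitin-conjugating enzyme *Ube2c* was at 256, 209, 428, 116, 8.47, 21.3, 11.2 and 9.82 CPM (log2 fold change -4.29 ± 0.69 SE, adjusted p = 0.00426). In each case the first E16.5 library was well above the second. Both lay above P0 by the naming rule, and above both W4 libraries as well. The passenger protein *Cdca8* was at 164, 102, 144.4, 49.3, 11.1, 5.61, 7.48 and 7.98 CPM (log2 fold change -3.70 ± 0.62 SE, adjusted p = 0.00514).

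Cyclin A2 (*Ccna2*), *Pimreg*, the ribonucleotide reductase subunit *Rrm2* and the spindle protein *Nusap1* fell by 4.22, 4.32, 3.63 and 3.61 on the log2 scale. Those 4 calls did not hold without the first P0 library (adjusted p = 0.0504 to 0.0942 in edgeR's quasi-likelihood test) or without the second (0.0800 to 0.166), and that of *Cdca8* did not hold without the second (0.0694). The call of *Nusap1* was also lost with the libraries of the 2 ages alone. The count of the list was 15 of 20 without the first P0 library and 10 of 20 without the second. In thinned cells, the proliferation mark *Mki67* had a UMI in 17.6, 6.80, 15.5, 5.35, 3.18, 0.575, 0.844 and 0.383% of EnC cells (1.22 to 39.6% without thinning). The topoisomerase *Top2a* had one in 18.7, 18.0, 24.5, 8.12, 5.10, 4.02, 1.69 and 1.92% (4.36 to 42.1% without thinning). The 2 E16.5 libraries thus differed in these shares, and the first of them lay close to E12.5. Between E16.5 and the earlier ages, 1 cell cycle gene was higher and 1 lower, but the count was 10 higher and 0 lower without the second E16.5 library and 0 higher and 10 lower without the first.

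Promoter windows of the cell cycle genes are shown because the members moved together. CCAAT, the letters of the box that the factor NF-Y binds, was searched on both strands (ATTGG on the other) in the 250 bases before each start site in RefSeq's annotation of GRCm38. It was found for 14 of the 16 cell cycle genes matched, 87.5%, and for 10 of the 14 MHC class I genes matched (71.4%), while 41.1% of 27025 genes held it. A match is only a match of letters, and the shares belong to the lists whatever their members do in EnC. Capitals mark them in the windows of *Ccnb1* (chr13:100786487-100786736, minus strand) and *Rrm2* (chr12:24708004-24708253, plus strand), written 5′ to 3′ towards the start site.
Ccnb1: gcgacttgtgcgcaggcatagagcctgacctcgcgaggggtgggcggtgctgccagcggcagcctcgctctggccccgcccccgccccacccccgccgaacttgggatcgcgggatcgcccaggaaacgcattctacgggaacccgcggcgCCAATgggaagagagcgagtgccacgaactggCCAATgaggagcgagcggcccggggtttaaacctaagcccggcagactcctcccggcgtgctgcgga
Rrm2: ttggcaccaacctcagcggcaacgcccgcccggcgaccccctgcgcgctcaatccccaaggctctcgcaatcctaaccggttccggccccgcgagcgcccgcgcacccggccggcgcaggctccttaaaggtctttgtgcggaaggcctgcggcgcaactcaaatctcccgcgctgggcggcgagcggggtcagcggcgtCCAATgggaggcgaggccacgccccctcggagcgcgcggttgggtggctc

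Among the genes higher at P0, *Ltbp4*, which assembles elastic fibres and binds latent TGF-β, was at 10.1, 10.5, 9.55, 14.6, 157, 147, 404 and 486 CPM (log2 fold change 3.499 ± 0.19 SE, adjusted p = 8.81e-05). Elastin (*Eln*) was at 5.62, 10.5, 16.7, 28.7, 369, 154.9, 132.1 and 142.98 CPM (log2 fold change 3.36 ± 0.38 SE, adjusted p = 0.00107). In the P0 libraries 84.9 and 50.3% of EnC cells held an *Eln* UMI, with 159 of 567 and 38 of 276 UMIs in 1 cell. EnA held far more *Eln* at P0, as given below, and the part of arterial RNA in the EnC level was not tested. Both P0 libraries lay above E16.5 by the naming rule, and above the E12.5 and E13.5 libraries as well, for each gene. The nuclear receptor *Nr4a1*, an immediate-early gene, was at 14.6, 19.6, 36.7, 38.3, 313, 295, 60.5 and 55.8 CPM (log2 fold change 2.88 ± 0.11 SE, adjusted p = 1.14e-05). It stood out at P0 alone, since both W4 libraries were lower again (log2 fold change -2.44 ± 0.11 SE, adjusted p = 1.08e-05). The immediate-early factors *Fos* (238, 280.0, 1536, 1615, 2612, 2946, 1706 and 1032 CPM) and *Egr1* (38.2, 84.6, 307, 351, 1243, 1333, 643 and 445 CPM) were also highest at P0. These genes are also known to respond to tissue dissociation, and of the 16 genes listed for that response 9 rose and 2 fell at P0.

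4 further genes that the rule picked at P0 rested on 1 library or on few cells. The cartilage collagen gene *Col2a1* was at 1.69, 1.22, 0.281, 0.123, 441, 0.561, 0 and 0 CPM, and its 441 CPM came from the first P0 library alone, where 412 of 677 UMIs lay in 1 EnC cell and 568 in 2 cells. In the same library the cells labelled NC held 1604 CPM, and the other subtypes a median of 116 CPM. The cartilage collagens *Col9a3* (135.5 and 1.12 CPM at P0) and *Col11a1* (177 and 1.12 CPM at P0) had the same split between the P0 libraries, and for *Col11a1*, 42.4% of 271 UMIs in the first of them lay in 1 cell. The microfibril gene *Mfap4* was at 107.5 and 34.2 CPM at P0, with 52.1 and 86.9% of its UMIs in 1 cell, and the change did not hold without the first P0 library (log2 1.71, adjusted p = 0.115 in edgeR's quasi-likelihood test).

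From birth to 4 weeks, EnC lost fetal growth transcripts and gained genes of antigen display, of lipid uptake and the chemokine gene *Cxcl12*. Of the 11200 genes tested, 20.4% changed (9.78% higher and 10.7% lower at W4). Of the 20 fetal growth and imprinted genes, 18 were lower and 0 higher, with a median log2 difference of -3.23 against -0.01 over all genes. The count was 11 without the second W4 library and 13 without the EnC cells that held a thymocyte UMI, with 0 higher in both cases.

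The imprinted noncoding RNA *H19* was at 1191, 1218, 606, 653, 469, 696, 3.12 and 8.59 CPM (log2 fold change -6.69 ± 0.34 SE, adjusted p = 1.41e-05). The imprinted *Mest*, a hydrolase-like protein of growing tissue, was at 2913, 2964, 3535, 3200.0, 1026, 1056, 43.6 and 70 CPM (log2 fold change -4.25 ± 0.20 SE, adjusted p = 1.08e-05). The transcription factor *Plagl1*, which acts on other imprinted genes, was at 301, 208, 117, 131.3, 104, 118, 6.23 and 0 CPM (log2 fold change -5.21 ± 0.46 SE, adjusted p = 0.000166). For these 3 genes both W4 libraries lay below P0 by the naming rule, and far below the E12.5, E13.5 and E16.5 libraries as well. The growth factor gene *Igf2* was at 12.4, 17.7, 11.9, 10.9, 21.5, 13.47, 0 and 0 CPM, and its level at W4 was at least 18.5-fold lower than at P0. The Notch-family ligand *Dlk1* was at 5.62, 107.6, 217, 561, 246, 587, 3.12 and 3.68 CPM (log2 fold change -6.99 ± 0.83 SE, adjusted p = 0.000683). *H19* and *Dlk1* in EnC were below most other stromal subtypes at each age. The RNA-binding protein gene *Igf2bp1* was at 126.98, 98.9, 17.8, 17.3, 1.95, 2.81, 0 and 0 CPM. It had already dropped before birth, at E16.5 (log2 fold change -2.58 ± 0.14 SE, adjusted p = 1.87e-05), and dropped again at P0 (log2 fold change -2.99 ± 0.29 SE, adjusted p = 0.000927). At W4 it had no UMI and was at least 2.60-fold lower than at P0.

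3 lower genes outside that list were picked by size. The membrane protein gene *Tmem255a* was at 204, 314, 222, 190.7, 62.6, 61.8, 1.25 and 1.23 CPM (log2 fold change -5.67 ± 0.28 SE, adjusted p = 1.41e-05). The phosphatase *Dusp2* was at 89.9, 190.4, 97.9, 95.8, 138, 110.03, 11.2 and 7.98 CPM (log2 fold change -3.74 ± 0.20 SE, adjusted p = 1.71e-05). The secreted matrix protein *Cthrc1* was at 18, 27.1, 21.2, 23.2, 83.4, 35.9, 5.61 and 1.84 CPM (log2 fold change -4.03 ± 0.53 SE, adjusted p = 0.00111). The fall of the cartilage collagen *Col11a1*, the largest by rule, again rested on the first P0 library, and its call was lost in 4 of the alternatives tried.

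MHC class I genes rose at each of the 3 age steps. Of the 16 genes of heavy chains, peptide transport and the immunoproteasome, 15 were higher at E16.5 than before, 11 at P0 than at E16.5 and 15 at W4 than at P0, with 0 lower at any step and median log2 differences of 3.49, 0.84 and 1.35. The heavy chain gene *H2-K1* was at 3.93, 17, 356, 325, 989, 704, 2783 and 2968 CPM. It rose (log2 fold change 5.46 ± 0.20 SE, adjusted p = 5.75e-07) at E16.5, (log2 fold change 1.17 ± 0.14 SE, adjusted p = 0.0015) at P0 and (log2 fold change 1.71 ± 0.14 SE, adjusted p = 0.000136) at W4. The libraries of successive ages did not overlap. The light chain gene *B2m* was at 233, 282, 666, 677, 1157, 825, 2064 and 2166 CPM, and *H2-D1* at 116, 136.05, 702, 651, 1539, 1146, 3136 and 3293 CPM. The nonclassical *H2-T23* was at 3.37, 1.83, 12.6, 12.47, 69.7, 69.1, 363 and 380.5 CPM (log2 fold change 2.36 ± 0.11 SE, adjusted p = 1.08e-05), while reads of the near-identical H2-Q genes may be split between them. *Nlrc5*, the transactivator of MHC class I genes, was at 0, 0.152, 0.843, 1.61, 4.56, 2.25, 12.47 and 15.3 CPM (log2 fold change 1.99 ± 0.58 SE, adjusted p = 0.0435). The share of thinned EnC cells with an *H2-K1* UMI went from 0 and 4.37% at E12.5 and E13.5 to 97.0 and 96.2% at W4 (5.49 to 98.5% without thinning), next to up to 66.9% in pericytes.

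The interferon-response genes followed the same order of ages. Of 24 genes, 23 were higher at E16.5 (median log2 difference 2.87), 17 at P0 (1.04) and 16 at W4 (0.82), and the one gene that was lower at any step was *Rsad2* at E16.5. *Ly6a*, the Sca-1 antigen, was at 7.3, 9.28, 279, 252, 762, 554, 2768 and 2923 CPM (log2 fold change 2.06 ± 0.14 SE, adjusted p = 6.04e-05) at the last step. *Ly6c1*, another surface protein of this family, was at 15.2, 20.8, 416, 361, 1107, 908, 3874 and 4065 CPM (log2 fold change 1.92 ± 0.12 SE, adjusted p = 3.92e-05). *Ifit3*, which blocks viral RNA, was at 0, 0, 5.76, 5.43, 11.7, 38.7, 128 and 134.999 CPM (log2 fold change 2.29 ± 0.37 SE, adjusted p = 0.00318). *Isg15*, a ubiquitin-like modifier, was at 8.99, 28.8, 114, 112.8, 166, 235, 233 and 248 CPM and had its steps before W4, where the difference did not pass the test (log2 fold change 0.20 ± 0.17 SE, adjusted p = 0.441). *Rsad2*, an antiviral enzyme, was at 52.8, 35.8, 19.9, 14.9, 46.9, 69.1, 229 and 184.7 CPM, falling first (log2 fold change -1.23 ± 0.22 SE, adjusted p = 0.00474) and rising later (log2 fold change 1.76 ± 0.21 SE, adjusted p = 0.00075). Without the second P0 library the count at P0 was 11, and without the second W4 library the count at W4 was 8, with 0 lower in each.

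Promoter windows of the antigen display and interferon genes are shown because most members of both lists were higher at each of the 3 steps. The core letters of the interferon-stimulated response element, GAAA, any 2 bases and GAAA again (TTTC, any 2 bases and TTTC on the other strand), lay in the 250 bases before the start site of 12 of the 19 interferon-response genes matched (63.2%) and of 3 of the 14 MHC class I genes matched (*B2m*, *H2-T23* and *Psme1*, 21.4%). They lay in front of 3.99% of 27025 genes, of 0 of the 8 capillary genes matched and of 2 of the 15 fetal growth and imprinted genes matched (13.3%). Capitals mark the letters in the windows of *B2m* (chr2:122147437-122147686, plus strand), *H2-T23* (chr17:36032702-36032951, minus strand), *Ifit1* (chr19:34640639-34640888, plus strand) and *Isg15* (chr4:156200819-156201068, minus strand), from RefSeq on GRCm38.
B2m: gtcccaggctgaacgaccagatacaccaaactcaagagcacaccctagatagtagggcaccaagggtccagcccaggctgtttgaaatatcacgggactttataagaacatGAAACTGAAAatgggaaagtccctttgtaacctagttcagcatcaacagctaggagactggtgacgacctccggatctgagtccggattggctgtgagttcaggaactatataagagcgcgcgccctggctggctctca
H2-T23: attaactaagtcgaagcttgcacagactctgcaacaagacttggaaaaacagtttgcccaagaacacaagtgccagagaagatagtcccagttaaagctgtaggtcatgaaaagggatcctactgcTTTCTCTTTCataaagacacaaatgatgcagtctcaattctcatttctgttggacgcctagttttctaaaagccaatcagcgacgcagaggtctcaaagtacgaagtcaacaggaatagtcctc
Ifit1: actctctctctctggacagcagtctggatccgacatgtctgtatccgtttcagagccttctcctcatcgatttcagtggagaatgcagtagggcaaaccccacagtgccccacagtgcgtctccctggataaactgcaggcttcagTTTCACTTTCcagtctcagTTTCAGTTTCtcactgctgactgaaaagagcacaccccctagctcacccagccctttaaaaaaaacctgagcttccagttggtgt
Isg15: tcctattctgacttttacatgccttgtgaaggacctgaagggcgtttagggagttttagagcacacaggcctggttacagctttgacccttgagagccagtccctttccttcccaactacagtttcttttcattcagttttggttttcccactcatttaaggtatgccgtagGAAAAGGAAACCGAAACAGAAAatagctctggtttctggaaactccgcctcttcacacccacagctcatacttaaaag

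*Isg15* held 3 overlapping matches and *Ifit1* held 2. Matches are a description of these letters and name no site of binding in EnC. Their shares were counted over the lists without regard to levels in EnC.

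**Figure D3:**
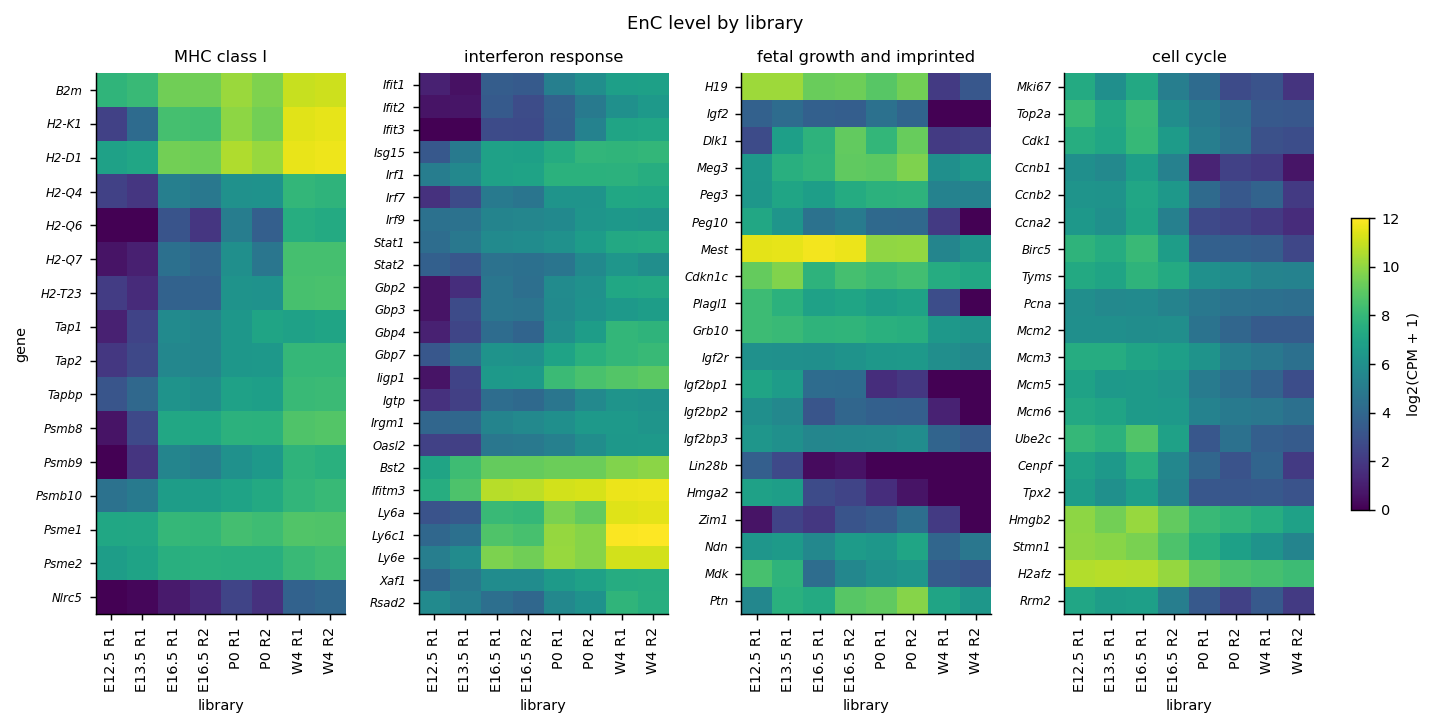
Log2(CPM + 1) in EnC (colour, 0 to 12) of the genes of 4 lists, MHC class I, interferon response, fetal growth and imprinted genes and cell cycle, in each of the 8 libraries. H2-K1 runs from 3.93 CPM at E12.5 to 2968 CPM in the second W4 library, H19 runs from 1191 CPM down to 8.59 CPM, and most of the cell cycle genes are darker, which is lower, from P0 on.

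Of 7 MHC class II genes, 5 could be tested and 4 rose at W4, but 0 without the second P0 library or without the first W4 library, 1 with equal numbers of cells, and 2 without the first P0 library, without the second W4 library or without the EnC cells that held a thymocyte UMI, with 0 lower in each. The invariant chain gene *Cd74* was at 1.12, 0.913, 5.48, 6.42, 34.5, 4.49, 133 and 68.7 CPM (log2 fold change 2.37 ± 0.59 SE, adjusted p = 0.0228), and *H2-Aa* was at 0, 0, 1.4, 1.61, 7.17, 8.98, 44.3 and 20.2 CPM (log2 fold change 1.92 ± 0.43 SE, adjusted p = 0.0148). Thymocyte markers in EnC rose at the same step (8 of 13 tested, 0 lower), with sums of 80.8 and 60.1 CPM at P0 and 348 and 212 CPM at W4. Without the EnC cells that held a thymocyte UMI, which left 41 and 87 cells at W4, MHC class I had 12 genes higher and 0 lower at W4, and the interferon list 15 higher and 0 lower. This removes no free RNA from the cells left, so the part of thymocyte RNA in these changes was not tested.

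Lipid genes rose further. Of the 17 fatty acid genes, 10 were higher and 2 lower at W4 (median log2 difference 0.65, with 8 to 10 higher and 0 to 3 lower under the alternatives). *Cd36* rose (log2 fold change 1.005 ± 0.12 SE, adjusted p = 0.000616) and *Fabp4* (log2 fold change 0.62 ± 0.07 SE, adjusted p = 0.000528), with W4 above P0 in each library. Lipoprotein lipase (*Lpl*), the enzyme that *Gpihbp1* holds, was at 5.06, 2.28, 26.5, 49.3, 54.7, 117, 355 and 461 CPM (log2 fold change 2.17 ± 0.36 SE, adjusted p = 0.00362). At W4, 54.9 and 54.2% of EnC cells held an *Lpl* UMI, with 11.4 and 9.71% of its UMIs in 1 cell. At P0, 23.9 and 28.8% of EnC cells held one, with 8.33 and 20.7% of its UMIs in 1 cell. The study lists *Lpl* among the top genes of the fibroblasts labelled CapFb1c. The part of fibroblast RNA in the EnC level of *Lpl* was not tested. *Gpihbp1* itself fell (log2 fold change -0.45 ± 0.10 SE, adjusted p = 0.0117), and both W4 libraries were below both P0 libraries. Of the 15 capillary genes, 8 rose and 3 fell (median 0.38, with 6 to 8 rising and 1 to 3 falling under the alternatives). *Sox18* rose (log2 fold change 0.69 ± 0.12 SE, adjusted p = 0.00563) and *Pecam1* (log2 fold change 0.54 ± 0.09 SE, adjusted p = 0.00349). *Car4* was at 388 and 427 CPM at W4 and did not pass the test (log2 fold change 0.04 ± 0.14 SE, adjusted p = 0.88).

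The chemokine *Cxcl12*, which guides progenitors and thymocytes through the receptor CXCR4, was at 8.99, 38.2, 20.5, 28.4, 282, 135.9, 3272 and 2887 CPM in EnC. It rose (log2 fold change 2.94 ± 0.30 SE, adjusted p = 0.000649) at P0 and (log2 fold change 3.84 ± 0.29 SE, adjusted p = 9.26e-05) at W4. At W4 both EnC libraries were above the 17 other subtypes with at least 20 cells, of which EnA came next with 2238 and 2280.1 CPM and whose medians were 191.2 and 203 CPM. In thinned cells it had a UMI in 16.7 and 21.7% of EnC cells at P0 and in 92.0 and 88.1% at W4 (32.8 to 37.1% and 94.9 to 95.9% without thinning), next to 13.6 to 77.2% in pericytes over the libraries.

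Genes by which leukocytes attach or leave were split. Of the 14 tested, 5 rose and 3 fell at W4 (3 to 6 and 2 to 3 under the alternatives, with 3 rising without the first P0 library). The sphingosine-1-phosphate receptor *S1pr1*, which steadies endothelial junctions, was at 53.9, 72.3, 121.9, 114, 198, 159, 357 and 363 CPM (log2 fold change 0.96 ± 0.12 SE, adjusted p = 0.000705). *Vcam1*, an integrin ligand, was at 3.93, 5.33, 15.6, 27.9, 25.4, 34.2, 87.3 and 63.2 CPM (log2 fold change 1.26 ± 0.31 SE, adjusted p = 0.0226). *Icam1*, which binds leukocyte integrins, was at 154.5, 134.4, 251, 276, 241, 268, 123 and 110.5 CPM (log2 fold change -1.19 ± 0.12 SE, adjusted p = 0.000263). *Madcam1*, an addressin for homing lymphocytes, was at 68.5, 47.9, 20.4, 18.8, 8.47, 18.5, 0 and 0 CPM and at W4 at least 14.96-fold lower than at P0. W4 and P0 libraries did not overlap in any of the 4 genes, but the share of all tested genes without overlap was not counted.

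Of the tip-cell list, 4 genes rose and 9 fell at W4, and without the EnC cells that held a thymocyte UMI 0 rose and 7 fell (0 to 5 and 5 to 10 under all alternatives). *Apln* fell (log2 fold change -2.24 ± 0.32 SE, adjusted p = 0.00175), while *Angpt2* rose (log2 fold change 1.80 ± 0.28 SE, adjusted p = 0.00254) and the proteoglycan *Esm1*, another tip-cell mark, rose (log2 fold change 1.52 ± 0.35 SE, adjusted p = 0.0169) with 61.3, 20.2, 130.3 and 107.4 CPM in the P0 and W4 libraries. *Apln* had a UMI in 17.8 and 10.3% of thinned EnC cells at P0 and in 2.53 and 1.15% at W4 (40.3, 23.7, 5.69 and 3.27% without thinning). Of 13 genes of VEGF and angiopoietin signalling, 7 rose and 1 (the ligand *Vegfb*) fell at W4 (4 to 7 and 0 to 1 under the alternatives). Among those that rose were the VEGF receptor *Flt1* at 233, 275, 335, 309, 463, 474, 959.8 and 800.2 CPM (log2 fold change 0.85 ± 0.11 SE, adjusted p = 0.000865) and the angiopoietin receptor *Tek* at 111, 60, 76.7, 76.1, 96.4, 99.4, 200.1 and 181 CPM (log2 fold change 0.90 ± 0.11 SE, adjusted p = 0.000775). The VEGF receptor *Kdr* did not pass the test (log2 fold change 0.21 ± 0.09 SE, adjusted p = 0.122).

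The 8 largest rises by rule at W4 took in 2 heat shock genes. Of the 16 genes listed for the response to dissociation, to which these belong, 3 rose and 9 fell at this step, and of the 11 glucocorticoid-response genes 3 rose and 6 fell (1 to 3 and 3 to 7 under the alternatives). *Hspa1a* was at 437, 299.9, 246, 213, 77.5, 81.4, 2480.0 and 2309.7 CPM (log2 fold change 4.85 ± 0.12 SE, adjusted p = 4.73e-07) and *Hspa1b*, a near-identical copy, at 66.9, 34.1, 36.1, 33.5, 11.7, 11.8, 964 and 626 CPM (log2 fold change 6.01 ± 0.25 SE, adjusted p = 6.9e-06). The other stromal subtypes had a median of 199.8 and 139.7 CPM of *Hspa1a* at P0 and of 1284 and 1463 CPM at W4. Whether the bead depletion of adult digests had a part in this rise was not tested. The monooxygenase *Fmo2* was at 0, 0.304, 0.702, 0.617, 9.12, 1.68, 342 and 336 CPM (log2 fold change 5.97 ± 0.32 SE, adjusted p = 1.79e-05), and 65.4 and 65.8% of EnC cells held a UMI of it at W4. *AW112010*, an interferon-induced RNA, was at 0, 1.37, 5.62, 8.52, 38.4, 23.6, 903 and 1000.2 CPM (log2 fold change 4.90 ± 0.21 SE, adjusted p = 7.63e-06) and was higher in EnC than in the 17 other subtypes in both W4 libraries. The ubiquitin-like gene *Ubd* was at 0, 0, 2.67, 0.494, 3.26, 1.12, 95.4 and 119.04 CPM (log2 fold change 5.58 ± 0.56 SE, adjusted p = 0.000301). The apolipoprotein L gene *Apol10b* was at 1.69, 1.83, 2.95, 1.98, 5.86, 3.93, 86 and 81 CPM (log2 fold change 4.04 ± 0.28 SE, adjusted p = 6.04e-05).

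*Prg2* and *C3*, also among these 8, were less secure. The granule protein gene *Prg2* was at 4.56, 0.561, 88.5 and 107.999 CPM in the P0 and W4 libraries (log2 fold change 5.26 ± 0.46 SE, adjusted p = 0.000264), but 8 of 246 and 6 of 275 EnC cells held a UMI at W4, with 58 of 142 and 72 of 176 UMIs in 1 cell, and DESeq2 gave an adjusted p of 0.173. Complement *C3* was at 0, 0, 0.14, 0.988, 1.3, 18.5, 176 and 233 CPM (log2 fold change 4.23 ± 0.54 SE, adjusted p = 0.000951), while the other subtypes had medians of 1974 and 2188 CPM at W4, and DESeq2 gave an adjusted p of 0.0899.

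The change from P0 to W4 was then compared between EnC and the mean of EnA and EnVL, with a term for the library, which asks what moved differently in capillaries. Of 9821 genes tested, 1.01% differed (0.753% with a more positive change in EnC and 0.255% with a more negative one). EnA rests on 29 and 31 cells at P0. No gene of the MHC class I (16), MHC class II (6), interferon (24) or fetal growth (18) lists passed this test, and 0 passed in DESeq2. In edgeR's quasi-likelihood test 2, 0, 3 and 1 of them had an unadjusted p under 0.05, as had 1011 of all genes. Over the 8 alternatives, up to 2 MHC class I genes were called higher (without the first P0 library), up to 1 interferon gene in each direction, and up to 3 fetal growth genes higher (without the second P0 library) and 1 lower. Their median differences of 0.08, 0.32, 0.12 and 0.19 on the log2 scale do not show that the 3 subtypes changed alike.

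Elastin changed least in EnC. The W4 minus P0 difference of log2 of the mean CPM + 1 of the 2 libraries was -4.77 in EnA, -0.93 in EnC and -3.48 in EnVL (log2 difference of the changes 3.31 ± 0.24 SE, adjusted p = 2.27e-06). EnA held 20447 and 12292 CPM of *Eln* at P0 and EnC 369 and 154.9, so that EnC began from a low level. The microfibril gene *Mfap2* differed in the same way, with -4.84 in EnA, -2.08 in EnC and -5.34 in EnVL (log2 difference of the changes 3.12 ± 0.40 SE, adjusted p = 0.000828). The BMP ligand *Bmp6* went up in EnC by 2.54, with -0.93 in EnA and 1.06 in EnVL (log2 difference of the changes 2.57 ± 0.36 SE, adjusted p = 0.00148), and it was at 0, 0.913, 7.87, 4.82, 14.3, 7.3, 65.4 and 70 CPM in EnC. The noncoding RNA *Halr1* changed by 2.63 in EnC, 1.20 in EnA and -1.17 in EnVL (log2 difference of the changes 2.82 ± 0.45 SE, adjusted p = 0.00399). The value for *Fmo2* was 5.73 in EnC, 0.69 in EnA and 5.10 in EnVL (log2 difference of the changes 2.97 ± 0.59 SE, adjusted p = 0.0193), and it did not pass in 3 of the 8 alternatives, without the first P0 library (0.94, adjusted p = 0.99996 in edgeR's quasi-likelihood test), without the first W4 library (2.63, adjusted p = 0.126) and with a replicate block in place of the library term (3.04, adjusted p = 0.117).

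In the other direction, the potassium channel subunit *Kcne3*, a tip-cell gene, was at 77, 154, 228, 219, 32.6, 74.1, 8.73 and 6.14 CPM in EnC. It changed by -2.69 in EnC, 2.48 in EnA and 0.27 in EnVL (log2 difference of the changes -4.29 ± 0.55 SE, adjusted p = 0.000855). In thinned EnC cells it had a UMI in 32.1 and 26.9% at E16.5, 6.37 and 9.20% at P0 and 1.69 and 1.92% at W4 (2.55 to 66.96% over all libraries without thinning). The protocadherin *Pcdh17* was at 247, 222, 262, 244, 355, 381, 215 and 139.3 CPM and changed by -1.05 in EnC, 1.46 in EnA and 0.65 in EnVL (log2 difference of the changes -2.11 ± 0.23 SE, adjusted p = 0.000248). The glucose transporter *Slc2a1*, known from barrier endothelium, was at 172.5, 291, 134.7, 141, 65.2, 55, 24.3 and 21.5 CPM and changed by -1.35 in EnC, 0.46 in EnA and 0.53 in EnVL (log2 difference of the changes -1.84 ± 0.35 SE, adjusted p = 0.0158). The actin-binding *Cotl1* changed by -2.19 in EnC, -0.48 in EnA and 0.12 in EnVL (log2 difference of the changes -1.98 ± 0.36 SE, adjusted p = 0.00992). The homeobox factor *Meox1* was at 10.1, 13.2, 172.1, 155.2, 160.3, 140.3, 233 and 239.9 CPM in EnC and changed by 0.65, less than the 3.45 of EnA and the 1.18 of EnVL (log2 difference of the changes -1.73 ± 0.27 SE, adjusted p = 0.00328). The calls of *Slc2a1*, *Cotl1*, *Halr1* and *Meox1* were lost in 4, 2, 1 and 1 of the 8 alternatives tried.

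Among the lists, the capillary genes held 1 gene with a more positive change in EnC, *Cxcl12* (log2 difference of the changes 1.60 ± 0.28 SE, adjusted p = 0.00734), and 2 with a more negative one, *Cd300lg* (log2 difference of the changes -1.08 ± 0.18 SE, adjusted p = 0.00527) and the diaphragm protein *Plvap* (log2 difference of the changes -0.73 ± 0.14 SE, adjusted p = 0.0193). EnA was already at 1997 and 1741 CPM of *Cxcl12* at P0, where EnC was at 282 and 135.9. At W4 EnVL was at 701 and 1229 CPM. The test takes the mean change of EnA and EnVL, so it does not show that *Cxcl12* rose more in EnC than in each of them. *Lpl* was the one fatty acid gene that differed (log2 difference of the changes 2.15 ± 0.49 SE, adjusted p = 0.0454). The part of fibroblast RNA in this difference was not tested. The calls of *Lpl* and *Plvap* were not made in DESeq2. Without the first W4 library 0 capillary genes passed, without the second 1 was higher and 0 lower, and with a replicate block in place of the library term 0 were higher and 2 lower. *Hspa1a* and *Hspa1b* also differed, with (log2 difference of the changes 1.43 ± 0.23 SE, adjusted p = 0.00527) and (log2 difference of the changes 1.85 ± 0.31 SE, adjusted p = 0.00542).

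**Figure D4:**
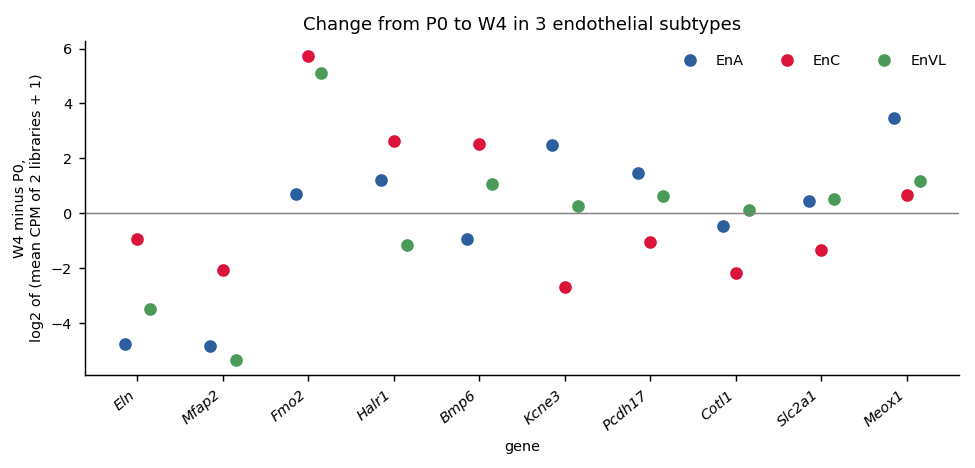
W4 minus P0 difference of log2 of the mean CPM + 1 of the 2 libraries in EnA, EnC and EnVL for the 10 genes whose change differed most in EnC by the naming rule. Eln changes by -4.77, -0.93 and -3.48 and Kcne3 by 2.48, -2.69 and 0.27 in EnA, EnC and EnVL.

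Sorted CD31+ cells were a separate readout of P0 and 4 weeks in 12 bulk libraries. They hold all endothelial subtypes, so that a change in the mix of subtypes, fewer cells of a type and less RNA per cell cannot be told apart. Of 11333 genes tested, 5.09% changed (3.19% higher and 1.91% lower at 4 weeks). 10 of the 16 MHC class I genes were higher and 0 lower, 9 of the 24 interferon genes higher and 0 lower, and 10 of the 13 fetal growth genes tested lower and 0 higher. Markers of other cells moved at the same step, with 5 of 5 erythroid genes higher (median log2 difference 5.35), the mural gene *Rgs5* higher and, of 11 venous genes, 6 higher and 1 lower, and their part in these counts was not tested.

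*H2-K1* in CD31+ cells lay at 474, 621 and 924 CPM at P0 (lowest, median and highest of 6 libraries) and at 1732, 1859 and 2017 CPM at 4 weeks (log2 fold change 1.61 ± 0.17 SE, adjusted p = 6.05e-05). *Cxcl12* lay at 246, 293 and 410.4 and at 1983, 2129 and 3024 CPM (log2 fold change 2.95 ± 0.16 SE, adjusted p = 1.17e-07). *Fmo2* lay at 0, 0.0898 and 4.71 and at 222, 253 and 367 CPM (log2 fold change 8.55 ± 1.07 SE, adjusted p = 0.000267), and *AW112010* at 3.41, 9.86 and 15.5 and at 118, 162 and 203 CPM (log2 fold change 4.20 ± 0.43 SE, adjusted p = 6.54e-05). The 2 ages did not overlap in any of these 4 genes, but the share of all bulk genes without overlap was not counted. *Ubd*, *Apol10b* and *Prg2* were higher at 4 weeks by 4.19, 4.95 and 6.78 on the log2 scale, again without overlap.

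Of the fetal genes, *Mest* lay at 3477, 4824 and 7015 CPM at P0 and at 105, 139.6 and 186 CPM at 4 weeks (log2 fold change -5.10 ± 0.22 SE, adjusted p = 1.66e-08). *H19* lay at 316, 403 and 468 and at 0, 0 and 3.84 CPM, and *Igf2* at 303, 535 and 983 and at 7.66, 10.2 and 14.5 CPM. *Tmem255a* lay at 302, 607 and 977 and at 0, 0.0371 and 6.4 CPM (log2 fold change -8.38 ± 1.16 SE, adjusted p = 0.000634). *Gpihbp1* lay at 730.4, 1366 and 2193 and at 314, 561 and 659.8 CPM (log2 fold change -1.28 ± 0.29 SE, adjusted p = 0.0205), and fell as in EnC, whereas *Cd36* (log2 fold change 0.51 ± 0.16 SE, adjusted p = 0.0889), *Fabp4* (log2 fold change -0.92 ± 0.38 SE, adjusted p = 0.21) and *Sox18* (log2 fold change -0.19 ± 0.26 SE, adjusted p = 0.806) did not pass the test. *Hspa1a* did not pass it either (log2 fold change 2.20 ± 0.84 SE, adjusted p = 0.17) and its ages overlapped, so that the heat shock rise of single EnC cells was not detected in bulk. *Meox1*, whose change was smaller in EnC than in EnA and EnVL, was higher at 4 weeks in CD31+ cells (log2 fold change 1.60 ± 0.16 SE, adjusted p = 6.05e-05).

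**Figure D5:**
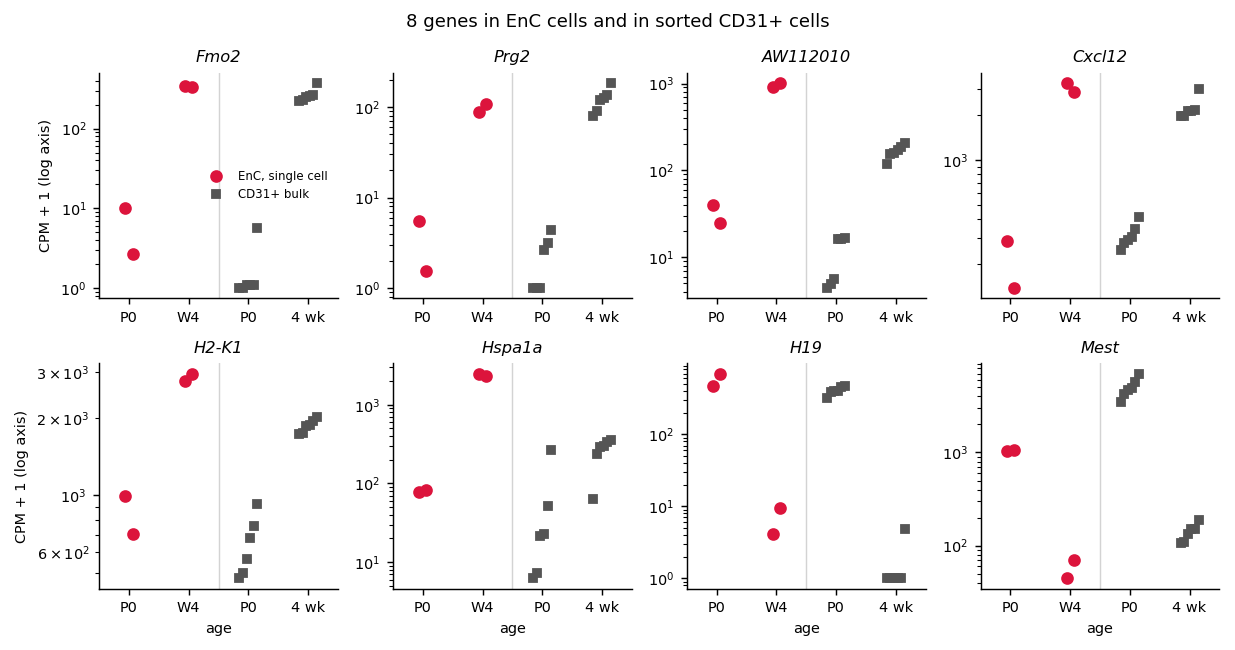
CPM + 1 (log axis) of 8 genes at P0 and W4 in EnC (circles, 2 libraries per age, UMIs) and in sorted CD31+ bulk RNA (squares, 6 libraries per age, reads). Cxcl12, H2-K1, Fmo2 and AW112010 are higher and H19 and Mest lower at the later age in both, while Hspa1a separates the ages in EnC only.

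Newborn EnC was last compared between Tbx1+/-Crkl+/- mice and WT littermates, which asks whether loss of 1 copy of each gene changes capillary cells. EnC numbered 105 to 259 cells in the Tbx1+/-Crkl+/- libraries and 133 to 339 in the WT ones, with a median of 2004 to 3163 UMIs per cell, and made up 64.9 to 75.3% of the endothelium. Of 6751 genes tested, 0.0148% changed, which is 1 gene, both in edgeR's quasi-likelihood test and in DESeq2, and 223 genes had an unadjusted p under 0.05. That gene was *Zbtb16*, a transcription factor induced by glucocorticoids, at 138.5, 72.1 and 50.9 CPM in Tbx1+/-Crkl+/- and 9.43, 5.21 and 17.2 CPM in WT EnC (log2 difference 2.63 ± 0.41 SE, adjusted p = 0.00316). All 3 libraries of one genotype lay above all 3 of the other. Of the 11 glucocorticoid-response genes 3 had an unadjusted p under 0.05, *Zbtb16* included, and *Fkbp5*, at 142, 135.1 and 115.2 against 72.3, 46.9 and 57.8 CPM, had an adjusted p of 0.382. Other lists with 3 or more genes at an unadjusted p under 0.05 were those of the shear-stress response (4 of 10), MHC class II (3 of 6) and MHC class I (3 of 15). Of the 15 capillary genes 0 passed and 2 had an unadjusted p under 0.05 in edgeR's test, and 0 passed in DESeq2, with *Gpihbp1* at 1808, 1309 and 997 against 1426, 1560.4 and 2117 CPM and *Car4* at 667, 452 and 379 against 672, 487 and 812 CPM. At this depth, smaller differences between the genotypes may not have been detectable.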

How the data were processed

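Single cells were captured with a droplet 3′ kit. Per the labels, the authors used Cell Ranger 3.1.0 with the mm10 build, kept cells with over 1000 genes and under 5% mitochondrial UMIs and removed doublets, and the UMI counts they deposited are whole numbers. Cells have at least 999 genes in the age series and 876 in the newborn data. The bulk values are read counts per Ensembl gene that the authors deposited without normalization (STAR 2.5.3a and HTSeq per the labels), with 10.4 to 13.5% of reads in entries of no gene, which were left out. Symbols were found for 37607 of 39179 bulk gene IDs. Bulk depth was 9131362 to 14827366 counts at P0 and 11094404 to 13477088 at 4 weeks. Cell type labels were used as deposited. Hspa1a and Hspa1b, the H2 class I genes and the haemoglobin genes share near-identical sequence, so how UMIs were split between them is uncertain.

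UMIs were summed over the EnC cells of each library (at least 20 cells for a test) and tested with edgeR 4.0.16 in R 4.3.3 (filterByExpr, which a gene can pass through 1 library, TMM factors, quasi-likelihood test, Benjamini-Hochberg adjustment over all genes, threshold 0.05). CPM are not TMM-scaled, so that fold changes can differ from CPM ratios. DESeq2 1.42.0 was an alternative, and so were other size factors, no filter, equal numbers of cells and leaving out each replicate. Folds against a group with no UMI used 3 counts over the group. Correlations, thinning and intervals used scipy 1.17.1 and numpy 2.4.6 (Python 3.11.15). Intervals cover counting error only. The code was tested on simulated data. The sets of genes and members were chosen with earlier results of these data known. Named genes were, in each direction, the 8 with the largest change among those past the threshold, with at least 50 CPM in the higher group and libraries that did not overlap (the 5 largest without the overlap condition for the difference between subtypes and for the genotypes), up to 4 of each list, the 12 genes highest in EnC against EnA and EnVL at P0 and W4 with a mean of at least 100 CPM in EnC over these libraries, and the 3 markers. Gene models, mitochondrial, ribosomal, haemoglobin and sex-linked switch genes were passed over. Other genes of the lists are given as examples chosen after their values were seen.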

Additional observations from a re-analysis of the deposited data

Results flagged for a closer look

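The change from P0 to W4 in EnC differed from the mean change of EnA and EnVL by a test of the difference itself for 10 named genes (log2 difference of the changes, edgeR's quasi-likelihood test). The values were 3.31 for *Eln*, 3.12 for *Mfap2*, 2.97 for *Fmo2*, 2.82 for *Halr1* and 2.57 for *Bmp6*, which changed more positively in EnC. They were -4.29 for *Kcne3*, -2.11 for *Pcdh17*, -1.98 for *Cotl1*, -1.84 for *Slc2a1* and -1.73 for *Meox1*, which changed more negatively.

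In the 6 CD31+ bulk libraries of an age, 1 library stood apart from the other 5 by Dixon's criterion in 9 of 37 groups of values over 19 genes. At P0 these were the highest values of *Fmo2* (4.71 CPM) and *Hspa1a* (268 CPM) and the lowest of *Pecam1* (968 CPM). At 4 weeks they were the highest values of *Fmo2* (367 CPM), *Cxcl12* (3024 CPM), *H19* (3.84 CPM) and *Fabp4* (1093 CPM) and the lowest of *Gpihbp1* (314 CPM) and *Pecam1* (2153 CPM).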

How the results depend on the processing

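Counts of changed genes moved with the tool and with single libraries, and the direction of no named gene reversed in the alternatives tried. The cell cycle list at E16.5 took opposite directions without the first or the second E16.5 library (median log2 difference -0.58 and 0.57). With DESeq2 in place of edgeR's quasi-likelihood test the counts were 1427 at W4 against P0 (2288 as reported), 1407 at P0 against E16.5 (2475), 1456 at E16.5 against the early ages (2385), 50 for the difference between subtypes (99) and 1121 in CD31+ bulk (577). Leaving out 1 library gave 1192 to 1571, 862 to 2072, 1443 to 1925, 22 to 150 and 466 to 785 in the same order, and 1 to 3 for the genotypes (1). The lowest of these were without the first W4 library (1192 and 22), without the second P0 library (862) and without the E12.5 library (1443), which with the E13.5 library was added after seeing the data. With no filter the difference between subtypes called 287 genes and the genotypes 8. Without EnC cells that held a thymocyte UMI, added after seeing the data, 967 genes changed at W4, in fewer cells. Over all ages 6302 genes changed, and 4297 to 7205 under the alternatives. The share of EnC in NETS differed over the ages under each alternative (adjusted p = 0.000521 to 0.0160), and that in the endothelium with an adjusted p of 0.0349. Deviations of same-numbered libraries had correlations of 0.181, 0.183 and 0.0510 in the age series and of 0.115, -0.0159 and -0.333 in the newborn data. The numbers were not taken as pairs, and a block for them was an alternative. With a replicate block the counts were 2535 at W4, 3031 at P0, 2415 at E16.5, 6477 over all ages, 61 for the difference between subtypes without a library term and 2 for the genotypes, and the share had an adjusted p of 0.00935. With the label prefix as a term, 535 genes changed in CD31+ bulk. The cause of these moves was not tested. Depth limits EnC at E12.5 (91 cells), at P0 (159 and 177 cells), at W4 (lowest UMIs per cell) and in the newborn data.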

Other observations

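Gene groups of EnC that the comparisons above left out also changed over the ages. Of the 15 basement membrane genes, 12 rose and 1 fell between the early ages and E16.5, and the collagen IV chain *Col4a1* was at 809, 925, 2048, 1976, 2633, 2453, 2057 and 1928 CPM (log2 fold change 1.31 ± 0.08 SE, adjusted p = 1.5e-05). Its change to W4 was in the other direction (log2 fold change -0.41 ± 0.08 SE, adjusted p = 0.0085). Of the same list, 3 rose and 3 fell at P0 (2 to 4 and 3 to 5 under the alternatives). At W4, 3 rose and 4 fell (2 to 4 falling under the alternatives). Of the 10 genes of the shear-stress response, 8 rose and 1 fell at E16.5, 4 rose and 2 fell at P0 and 6 rose and 0 fell at W4. Under the alternatives 6 to 8 rose at E16.5, 2 to 5 rose and 0 to 2 fell at P0, with 2 rising without the first P0 library, and 4 to 6 rose at W4. Of all genes tested, 14.1% rose and 7.17% fell at E16.5, 8.75 and 13.3% at P0 and 9.78 and 10.7% at W4. At E16.5, 13 of the 16 dissociation-response genes also rose and 1 fell, and 10 of the 11 glucocorticoid-response genes rose and 0 fell. Their part in the shear-stress counts was not tested. The flow-responsive factor *Klf2* was at 485, 275, 844, 766, 1159.9, 1030.1, 1342 and 1036 CPM (log2 fold change 1.23 ± 0.13 SE, adjusted p = 0.00023), and its partner *Klf4* at 92.7, 76.1, 236, 263, 510.2, 424, 526 and 398 CPM (log2 fold change 1.67 ± 0.14 SE, adjusted p = 9.32e-05). The nitric oxide synthase *Nos3*, also of that list, was at 46.6, 37.6, 25.7, 28.9, 31.9, 31.4, 45.5 and 41.1 CPM and fell at E16.5 (log2 fold change -0.52 ± 0.14 SE, adjusted p = 0.027).

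Of the 12 junction genes tested, 7 were higher at E16.5, 3 at P0 and 4 at W4, with 0 lower at any step, where 14.1, 8.75 and 9.78% of all genes were higher. Under the alternatives 5 to 7, 2 to 4 and 3 to 5 were higher. The tight junction gene *Cldn5* was at 410.2, 431, 532, 454, 873, 1245, 899 and 1060.3 CPM, with its rise at P0 (log2 fold change 0.97 ± 0.18 SE, adjusted p = 0.00747). The 2 P0 libraries differed, and the W4 libraries lay between them. The matrix glycoprotein *Sparc*, of the tip-cell list, was at 1651, 2688, 4868, 5016, 6655, 5453, 5846 and 7207 CPM (log2 fold change 1.32 ± 0.12 SE, adjusted p = 0.000136).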
